A study of Mus musculus with 68 samples.

Results

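The mouse genes Zfp930 to Zfp964 carry consecutive names given to C2H2 zinc finger genes, most of which belong to the large family that also encodes a Krüppel-associated box (KRAB). Members were every annotated gene whose symbol is Zfp9 followed by 2 digits, and 33 of the 24421 annotated genes that all 68 libraries list met that rule. The rule itself uses no measured value, though the members were chosen with earlier results of these data known. Each member had 1 row in every library, and the coordinates of all 33 were the same in all tables. Whether each protein holds a KRAB domain was not checked here, so the genes are called by their names. Levels are given in transcripts per 1000000 (TPM), which correct for transcript length and can therefore be compared between genes.

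KRAB zinc finger proteins read DNA through an array of zinc fingers and use the KRAB domain to bring in the corepressor Trim28, also called KAP1. Trim28 in turn recruits the histone methyltransferase Setdb1 and HP1 proteins, so that H3K9me3 is laid down over the bound element. In the early mouse embryo and in embryonic stem cells this pathway is known for silencing transposable elements, above all endogenous retroviruses. Among the members, Zfp932 is known with its close paralog Gm15446 as a repressor of retroviral elements of the ERVK class.

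The libraries were Smart-seq2 RNA-seq of 10 cells per reaction, in 2 series that were tested separately because their mouse strains differ. In the SCNT series, cumulus cells (CCs) of B6D2F1 mice were the nuclear donors for B6D2F1 oocytes, and the cloned embryos were sampled 6 h and 14 h after activation (6 hpa and 14 hpa), at the early and late 2-cell stages (E2C and L2C), at the 4-cell and 8-cell stages (4C and 8C), at the morula stage, and at the blastocyst stage as separated trophectoderm (TE) and inner cell mass (ICM). There were 3 libraries of CCs, 5 of 4C and 6 of each other stage. In the fertilized series, C57BL/6j zygotes were injected with a morpholino (MO) against Max, a partner of MYC transcription factors, or against Mcrs1, a nuclear protein of chromatin complexes, and ICM and TE were collected with 2 libraries per group. The control libraries are labelled untreated, whereas the protocol given with them names a random control MO. The paper lists this control MO at a higher concentration than the Max MO and Mcrs1 MO of the ICM and TE libraries. On that account target and dose cannot be told apart in these comparisons. The study describes its SCNT libraries as biologically independent and the fertilized ones as biological replicates, whereas the labels name no culture or animal for a library, and p-values measure the spread between these libraries. In bulk libraries such as these, fewer cells of a type and less RNA per cell cannot be told apart. Per the methods, RNA was captured by its poly(A) tail, so a change in tail and a change in RNA amount cannot be told apart either.

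The members lay on 12 chromosomes (mm10), with 10 on chromosome 17, 5 each on chromosomes 7 and 8, and 3 on chromosome 13. A run of 7 members, in the order Zfp948, Zfp942, Zfp943, Zfp947, Zfp944, Zfp946 and Zfp945, occupied 1.3 Mb at chr17:21567046-22867134. Among these, Zfp942 and Zfp943 faced away from each other with starts 95 bp apart. RefSeq promoters (GRCm38.p6, the same assembly as mm10) from 250 bases before to 50 bases after the start were matched for 30 of the 33 members, in 36 windows, and Zfp930, Zfp934 and Zfp960 had no entry. Because one of the knockdowns targets Max, the windows were searched for the E-box CACGTG that MAX dimers are known to bind. This motif reads the same on both strands and no other motif was searched. It stood in 6 of 36 member windows (16.7%), compared with 7.15% of all 32851 windows and 5.96% of 302 windows of other Zfp-numbered genes. The holders were Zfp933 on chromosome 4 and Zfp942, Zfp943, Zfp944, Zfp946 and Zfp947 in the chromosome 17 run, so 5 of its 7 members held one. The promoters of 4 of them are shown, with the E-box in capitals and the gene's own strand written 5′ to 3′. That of Zfp943, whose window overlaps that of Zfp942 on the opposite strand, is not shown.
Zfp942: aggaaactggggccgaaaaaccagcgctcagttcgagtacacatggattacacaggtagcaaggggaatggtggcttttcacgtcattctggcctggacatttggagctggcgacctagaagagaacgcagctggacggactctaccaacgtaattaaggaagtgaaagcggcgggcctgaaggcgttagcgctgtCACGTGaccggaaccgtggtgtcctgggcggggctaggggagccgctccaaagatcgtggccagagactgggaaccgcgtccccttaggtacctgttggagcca
Zfp944: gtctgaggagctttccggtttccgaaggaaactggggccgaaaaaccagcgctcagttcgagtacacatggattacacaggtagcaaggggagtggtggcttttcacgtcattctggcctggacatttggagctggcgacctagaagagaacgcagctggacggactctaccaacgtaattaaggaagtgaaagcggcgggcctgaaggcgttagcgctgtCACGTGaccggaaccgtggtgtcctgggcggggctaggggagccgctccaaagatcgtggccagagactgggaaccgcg
Zfp946: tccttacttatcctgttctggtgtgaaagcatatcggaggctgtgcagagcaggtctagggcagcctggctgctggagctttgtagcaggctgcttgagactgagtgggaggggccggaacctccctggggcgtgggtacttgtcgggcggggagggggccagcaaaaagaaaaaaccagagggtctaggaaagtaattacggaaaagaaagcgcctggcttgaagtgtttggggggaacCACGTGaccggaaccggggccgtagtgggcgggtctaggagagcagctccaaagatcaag
Zfp947: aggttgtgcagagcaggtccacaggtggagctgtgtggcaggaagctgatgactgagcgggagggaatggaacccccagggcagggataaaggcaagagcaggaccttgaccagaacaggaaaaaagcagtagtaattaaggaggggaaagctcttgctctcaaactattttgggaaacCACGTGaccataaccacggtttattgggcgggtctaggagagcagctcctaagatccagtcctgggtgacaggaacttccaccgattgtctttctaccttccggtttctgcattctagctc
The windows are chr17:21962415-21962714 on the minus strand for Zfp942, chr17:22361351-22361650 on the minus strand for Zfp944, chr17:22423952-22424251 on the plus strand for Zfp946 and chr17:22165928-22166227 on the minus strand for Zfp947. The E-box lay 54 bases before the start of Zfp942, 29 before that of Zfp944, 10 before that of Zfp946 and 71 before that of Zfp947. These promoters are not independent of each other. The windows of Zfp942 and Zfp944 share an unbroken identical run of 207 bases that includes the E-box, and both share with Zfp946 the 16-base run CACGTGaccggaaccg. Zfp942 and Zfp943 hold a single E-box between them, since their windows overlap on opposite strands with 194 bases in common. The longest run that Zfp947 shares is 25 bases with Zfp946 and 11 bases with Zfp942 or Zfp944, none of them with the E-box. A match is a description of these letters and not evidence of binding.

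Sequence shared with other transcripts limits which members can be read as single genes. By the share of 100-base windows of the transcript found also in another gene, 16 members shared none, 13 shared up to 20% and 4 shared more. The last were Zfp935 (99.4%, with Gm49359), Zfp960 (69.2%, with Zfp97 and BC002059), Zfp963 (37.96%, with Gm20422 and the member Zfp964) and Zfp932 (22.1%, with Gm15446). How reads that fit several genes were divided is not given in the sources used here, so levels of these 4 are uncertain. Zfp942 and Zfp944, whose promoters are so alike, shared 1.64% and 2.38% of their transcripts.

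Reads aligned per library amounted to between 1.00 and 5.17 Gb as the tables' own coverage and FPKM values imply, and annotated genes took between 30.4% and 94.4% of the assembled TPM. The lowest share was in L2C replicate 1, where the members summed to 344 TPM against 735 to 1107 TPM in the other L2C libraries. Within each SCNT stage, replicates 1 to 3 stood apart from replicates 4 to 6, although the labels name no batch. At E2C the ranges of these subsets did not overlap for 17 of the 29 members that could be tested (41.0% of all genes tested), and 15 of the 17 were higher in replicates 1 to 3. The same was found for 13 members at 6 hpa (28.5% of all genes), 11 at 14 hpa (52.5%), 6 at L2C (27.8%), 5 at 4C (39.0%), 6 at 8C (26.3%), 8 at the morula stage (24.8%), 10 in ICM (28.1%) and 4 in TE (33.0%). The ICM libraries differed in genes detected too, with 6177 to 6771 genes at 1 TPM or more in replicates 1 to 3 and 9011 to 10032 in replicates 4 to 6. For changes between SCNT groups that are given with a standard error, square brackets therefore hold the log2 fold change within replicates 1 to 3 and that within replicates 4 to 6. Marker genes fitted the labels of the CC and early SCNT libraries. The summed TPM of 10 cumulus markers lay between 1629 and 2366 in CCs and between 7.79 and 15.5 at 6 hpa, and that of 7 oocyte markers between 0.0158 and 2.25 in CCs and between 4192 and 8142 at 6 hpa. In blastocysts the marker sums overlapped between ICM and TE over all replicates. The 8 TE markers summed to between 2034 and 8511 TPM in ICM libraries and between 5157 and 16236 TPM in TE libraries. Within replicates 4 to 6 all ICM libraries lay under all TE libraries in this sum. Within replicates 1 to 3, ICM replicate 1 exceeded TE replicate 1. ICM markers summed higher in every ICM library than in every TE library within each subset.

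Summed over the 33 members, the level was low in CCs, highest between 14 hpa and L2C, and low again in blastocysts. The sum was 294 ± 25.0 TPM (SD, n = 3) in CCs. It lay between 396 and 774 TPM (median 566) at 6 hpa, between 623 and 841 TPM (median 728) at 14 hpa, between 489 and 935 TPM (median 649) at E2C and between 344 and 1107 TPM (median 777) at L2C. All libraries of these 4 stages lay above the 3 CC libraries. Thereafter the sum was 309, 411, 459.8, 446 and 486 TPM in the 5 libraries of 4C, between 459.7 and 730.2 TPM (median 532) at 8C, between 231 and 646 TPM (median 370.3) at the morula stage, between 247 and 372 TPM (median 316) in ICM and between 217 and 354 TPM (median 256) in TE. As a share of the TPM of all Zfp-numbered genes, the members held 11.95% in CCs, 18.1% at L2C and 9.85% in ICM. By group mean over CCs and the 9 SCNT stages, 21 of the 33 members were highest at 6 hpa, 14 hpa, E2C or L2C, 4 in CCs (Zfp945, Zfp948, Zfp949 and Zfp953) and 8 at 4C or later. The level was uneven among the members, since 11 reached a mean of 50 TPM or more in 1 of these 10 groups while 10 stayed under 10 TPM in all 10.

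**Figure D1:**
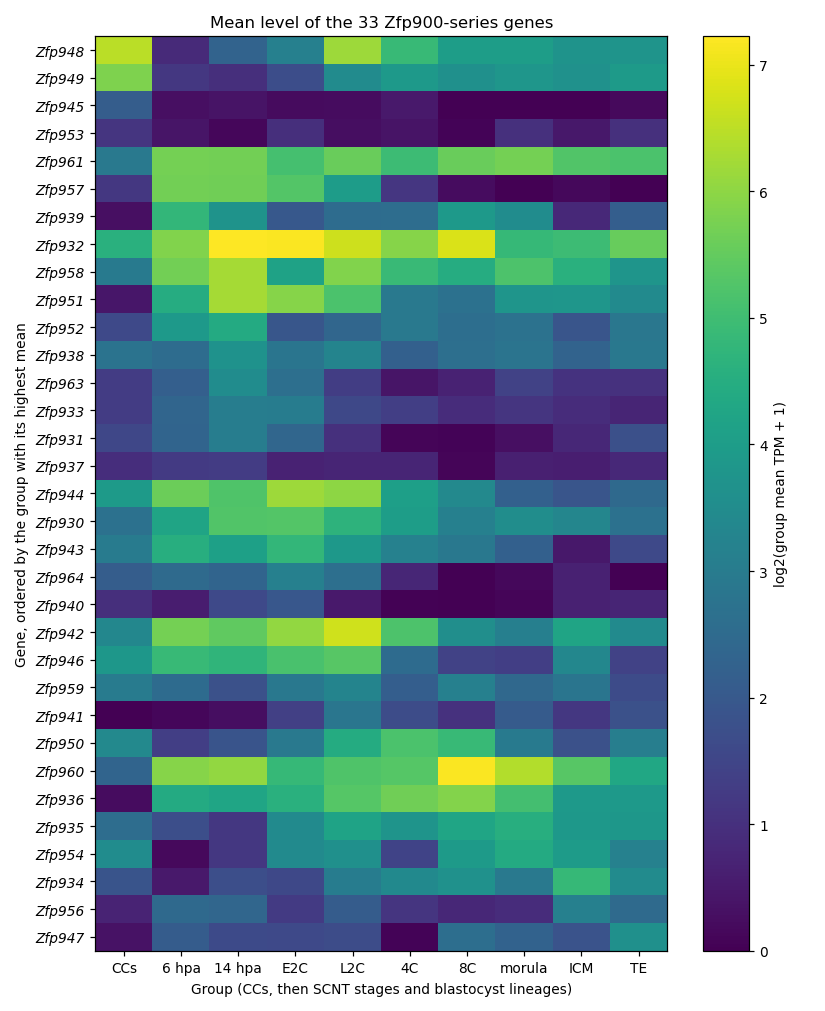
Mean level of each of the 33 members, as log2(group mean TPM + 1), in CCs and the 9 SCNT stages (columns), with members in rows. Brighter cells are higher levels: 21 rows are brightest between 6 hpa and L2C, and Zfp948 and Zfp949 are bright in CCs, dark at 6 hpa and brighter again from L2C.

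Zfp932, the ERVK repressor, had the highest mean of any member in these groups, 149 ± 52.3 TPM at 14 hpa (SD, n = 6). It was measured at 16.7, 24.9 and 27.3 TPM in CCs. At 14 hpa it lay between 97.7 and 214 TPM (median 135) and at E2C between 96.3 and 183 TPM (median 148). None of the 6 libraries at either of these stages overlapped with CCs. Zfp960 was second by this measure, at 145 ± 41.9 TPM at 8C, where it lay between 100.3 and 219 TPM (median 143). Because most of its transcript is shared with Zfp97, whose own mean was highest in the same group at 99.8 TPM, the 2 cannot be read apart. Next in order by their highest group mean were Zfp942 (102 ± 47.7 TPM at L2C), Zfp948 (88.7 ± 19.9 TPM in CCs, n = 3) and Zfp958 (75.5 ± 10.6 TPM at 14 hpa). The other members of the 10 highest were Zfp951, Zfp944, Zfp936, Zfp949 and Zfp961, with highest group means of 75.3 to 51.7 TPM. The order of these is not firm, since for most of them the SD exceeds the step to the next.

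The step from CCs to 6 hpa, which sets the donor cells against the reconstructed oocyte, divided the members: most that changed were far higher at 6 hpa and a few were far lower. Of 29 members with enough signal, 19 passed the test, 15 higher and 4 lower at 6 hpa. Among all genes tested 61.4% passed, 25.8% higher and 35.6% lower. The median log2 fold change was 1.17 over the members and -0.28 over all genes. The other Zfp-numbered genes gave 44 higher and 60 lower of 207 tested, with a median of -0.01. Passing here and below means at least a 2-fold change on the log2(TPM + 1) scale with an adjusted p under 5% in a limma fit over all genes.

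Among the members that rose, Zfp957 was measured at 2.06, 1.45 and 0.303 TPM in CCs and between 27.3 and 64.8 TPM (median 53.3) at 6 hpa (log2 fold change 4.54 ± 0.41 (SE), adjusted p = 2.41e-14). Zfp939 was listed at 0 in 2 CC libraries and at 0.717 TPM in the third, and lay between 21.0 and 34.3 TPM (median 25.4) at 6 hpa (log2 fold change 4.50 ± 0.70 (SE), adjusted p = 1.64e-07). Zfp936 was also at 0 in 2 CC libraries, with 0.525 TPM in the third, and lay between 15.0 and 28.4 TPM (median 19.6) at 6 hpa (log2 fold change 4.17 ± 0.48 (SE), adjusted p = 6.98e-11). These 3 genes were thus near 0 in the donor cells and at 15.0 TPM or more in every 6 hpa library. Zfp951 moved from 1.01, 0.0483 and 0.0255 TPM to a range between 13.9 and 46.3 TPM (median 16.8) (log2 fold change 3.98 ± 0.72 (SE), adjusted p = 3.39e-06). Zfp960 moved from 4.47, 3.32 and 4.37 TPM to a range between 28.0 and 102 TPM (median 50.6) (log2 fold change 3.41 ± 0.62 (SE), adjusted p = 3.56e-06), and Zfp961 from 5.17, 9.93 and 4.80 TPM to a range between 35.8 and 65.3 TPM (median 53.8) (log2 fold change 2.81 ± 0.57 (SE), adjusted p = 2.65e-05). The other 9 were Zfp958, Zfp942, Zfp952, Zfp956, Zfp944, Zfp947, Zfp930, Zfp943 and Zfp932, with log2 fold changes from 2.63 down to 1.14. Among the 15, ranges overlapped for Zfp932 and Zfp947, and the share of all genes without overlap was not computed. A fold against a level so near 0 depends on the added 1 TPM and understates the difference.

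The 4 that fell did so without overlap between the groups, and here too the share of all genes without overlap was not computed. Zfp948 was measured at 66.7, 105 and 94.3 TPM in CCs and lay between 0 and 2.21 TPM (median 0.685) at 6 hpa (log2 fold change -5.69 ± 0.72 (SE), adjusted p = 8.22e-10). Zfp949 was measured at 62.7, 51.2 and 54.5 TPM and then lay between 0.233 and 1.83 TPM (median 1.30) (log2 fold change -4.72 ± 0.56 (SE), adjusted p = 1.68e-10). Every CC library exceeded every 6 hpa library of these genes by more than an order of magnitude. Zfp954 fell by 3.30 on the log2 scale (adjusted p = 0.00118) and Zfp950 fell by 2.39 (adjusted p = 0.00143). Cumulus and oocyte markers moved with this comparison as given above, and their part in it was not tested.

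**Figure D2:**
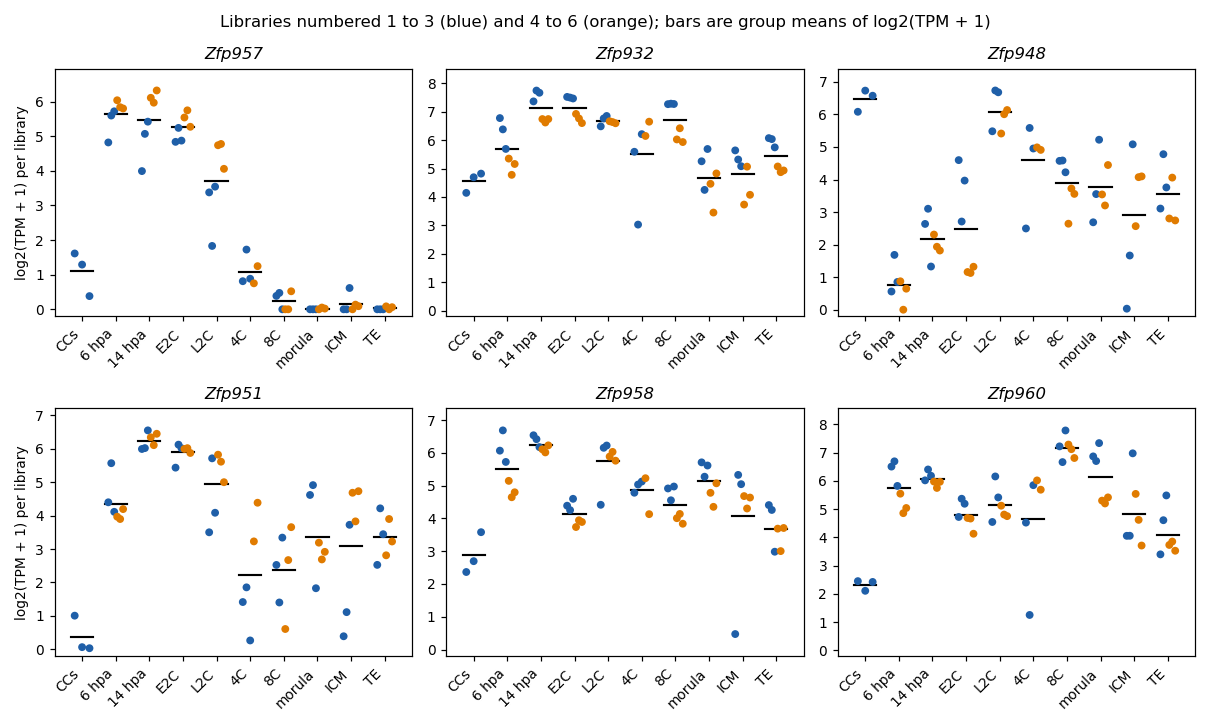
Level of Zfp957, Zfp932, Zfp948, Zfp951, Zfp958 and Zfp960 in every CC and SCNT library, as log2(TPM + 1), by stage. Each point is a library (blue for replicates 1 to 3, orange for replicates 4 to 6) and each bar is the mean of the log2 values. Zfp957 is high from 6 hpa to E2C and near 0 from 8C, while Zfp948 is high in CCs and again at L2C.

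From 6 hpa to 14 hpa 3 of 29 members passed, all higher (11.1% of all genes passed, 6.14% higher and 4.94% lower). Replicates 4 to 6 alone gave 8, all higher (17.7% of all genes passed, 14.1% higher). Replicates 1 to 3 alone gave none by limma (6.49% of all genes), with 1 member at an unadjusted p under 5% (18% of all genes). Zfp951 lay between 62.5 and 92.3 TPM (median 73.8) at 14 hpa (log2 fold change 1.88 ± 0.59 (SE) [1.49, 2.28], adjusted p = 0.0252), and all 6 of these libraries lay above all 6 at 6 hpa. Zfp932 lay between 26.5 and 109 TPM (median 45.3) at 6 hpa before the 14 hpa range given above (log2 fold change 1.46 ± 0.41 (SE) [1.31, 1.61], adjusted p = 0.00995). In this gene the highest 6 hpa library, replicate 1 at 109 TPM, overlapped with replicates 4 to 6 of 14 hpa. Zfp963, a low gene with a shared sequence, rose as well (log2 fold change 1.51 ± 0.49 (SE) [1.37, 1.66], adjusted p = 0.0305), but did not pass in 4 of 7 other settings. From 14 hpa to E2C 2 of 29 passed, both lower (5.83% of all genes, 2.78% higher and 3.05% lower). Quantile normalization gave 4, all lower (5.53% of all genes lower), as did replicates 4 to 6 alone (5.55% lower), whereas replicates 1 to 3 alone gave 3, all higher (8.72% higher). Zfp958 lay between 63.6 and 91.8 TPM (median 72.6) at 14 hpa and between 12.3 and 23.2 TPM (median 16.2) at E2C (log2 fold change -2.11 ± 0.45 (SE) [-1.96, -2.26], adjusted p = 0.00121), and Zfp952 between 9.14 and 34.1 TPM (median 19.9) and then between 1.09 and 4.83 TPM (median 2.88) (log2 fold change -2.47 ± 0.50 (SE) [-2.06, -2.87], adjusted p = 0.000638). Neither gene's ranges overlapped.

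From E2C to L2C, the interval of the major wave of genome activation in fertilized mouse embryos, members moved both ways. Of 29 tested, 6 were higher and 4 lower at L2C, and 34.9% of all genes passed, 23.7% higher and 11.2% lower. The median was 0.34 over the members and 0.26 over all genes. Within replicates 1 to 3 these medians were -0.37 and 0.19, and within replicates 4 to 6 they were 0.75 and 0.32. Quantile normalization, which moves the all-gene median from 0.26 to -0.02, gave 5 higher and 8 lower (19.4% and 20.9% of all genes). Replicates 4 to 6 alone gave 11 calls (39.3% of all genes), whereas replicates 1 to 3 alone gave 3, all lower (9.52% of all genes lower).

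The largest rise was that of Zfp948, the first gene of the chromosome 17 run. It lay between 1.19 and 23.2 TPM (median 3.52) at E2C and between 41.6 and 106 TPM (median 66.2) at L2C (log2 fold change 3.60 ± 0.59 (SE) [2.54, 4.65], adjusted p = 2.52e-06), and all L2C libraries exceeded all E2C libraries. At E2C its libraries split into 5.54 to 23.2 TPM in replicates 1 to 3 and 1.19 to 1.50 TPM in replicates 4 to 6. Zfp950 lay between 0.585 and 18.5 TPM (median 3.03) and then between 4.04 and 27.8 TPM (median 24.1) (log2 fold change 2.05 ± 0.55 (SE) [0.39, 3.71], adjusted p = 0.00222). Its ranges overlapped. Zfp958, which had fallen by E2C, rose again to a range between 20.3 and 73.7 TPM (median 61.2) (log2 fold change 1.61 ± 0.45 (SE) [1.19, 2.04], adjusted p = 0.00316), and L2C replicate 1 was the library that overlapped with E2C. The other 3 were Zfp949 (log2 fold change 1.72 ± 0.47 (SE) [1.03, 2.40], adjusted p = 0.00256), Zfp934 (log2 fold change 1.58 ± 0.65 (SE) [1.15, 2.01], adjusted p = 0.0486) and Zfp941 (log2 fold change 1.38 ± 0.48 (SE) [0.92, 1.84], adjusted p = 0.0192). Zfp934 did not pass in 4 of 8 other settings, among them quantile normalization and the fit without L2C replicate 1, and Zfp941 did not in 2 of 8. Those that fell were Zfp933, Zfp963, Zfp957 and Zfp931, with log2 fold changes from -1.70 to -1.38. Of these only Zfp957 had ranges that did not overlap, between 27.6 and 52.8 TPM (median 37.3) at E2C against between 2.56 and 26.4 TPM (median 13.2) at L2C (log2 fold change -1.53 ± 0.33 (SE) [-2.07, -0.996], adjusted p = 0.000197).

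From L2C to 4C every member that passed was lower. This held for 10 of 29, against 38.4% of all genes passing and 26.6% being lower. The median was -0.89 over the members, -0.33 over all genes and -0.47 over 204 other Zfp-numbered genes. After quantile normalization, which moves the all-gene median from -0.33 to 0.09, 7 members were lower and 1 was higher (18.8% and 20.2% of all genes). Without L2C replicate 1, a choice made after seeing the data, 12 passed (38.3% of all genes). Replicates 1 to 3 alone gave 4 (24.7%) and replicates 4 to 6 alone gave 12 (49.1%).

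Zfp957 dropped to near 0 over this step. It lay between 2.56 and 26.4 TPM (median 13.2) at L2C and was measured at 0.756, 2.31, 0.844, 0.683 and 1.37 TPM at 4C (log2 fold change -2.64 ± 0.35 (SE) [-1.78, -3.53], adjusted p = 1.38e-08), with no overlap. At 8C it lay between 0 and 0.435 TPM, and in the morula between 0 and 0.0359 TPM. None of the 12 fertilized blastocyst libraries held more than 0.151 TPM of this gene. Zfp946 was measured at 4.25, 2.75, 6.77, 4.17 and 6.05 TPM at 4C after a range between 13.8 and 62.6 TPM (median 39.3) at L2C (log2 fold change -2.67 ± 0.51 (SE) [-2.84, -2.46], adjusted p = 2.12e-05), again with no overlap. Zfp951 was measured at 1.67, 2.62, 0.204, 8.37 and 19.9 TPM at 4C after a range between 10.3 and 55.4 TPM (median 39.4) (log2 fold change -2.72 ± 0.62 (SE) [-3.25, -1.67], adjusted p = 0.00033), where 4C replicate 5 overlapped with L2C. Zfp954 fell by 2.14 on the log2 scale, Zfp944 by 1.76 and Zfp942 by 1.55. The other 4 were Zfp948, Zfp964, Zfp941 and Zfp932, with log2 fold changes from -1.49 to -1.14. Oocyte markers fell over the same step from a summed 617 to 2712 TPM at L2C to 37.0 to 108 TPM at 4C, and their part in the members' change was not tested.

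**Figure D3:**
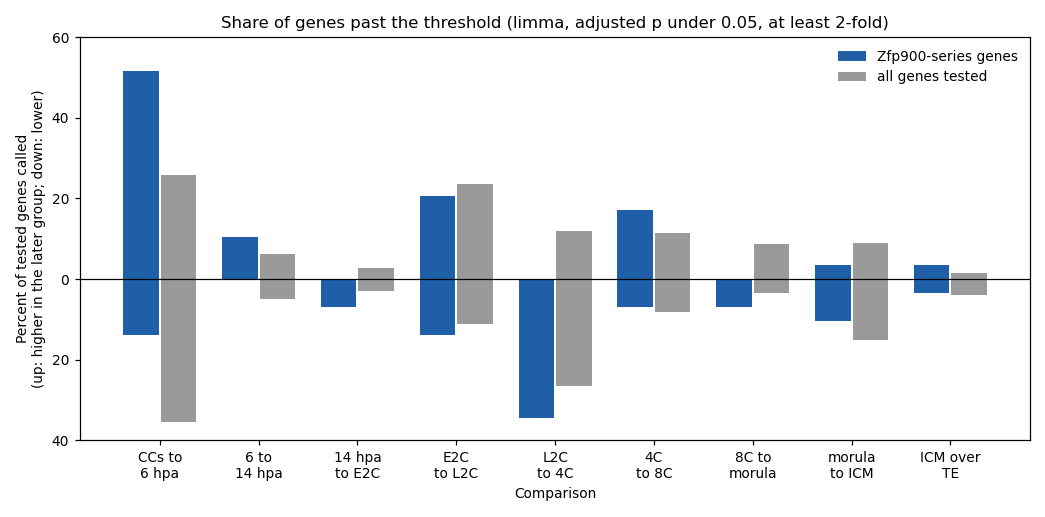
Percentage of tested members (blue bars) and of all tested genes (grey bars) that passed the test, drawn upward for higher and downward for lower in the later group (in ICM for the last pair), for the step from CCs to 6 hpa, the 7 steps between SCNT stages and ICM against TE. At the step from L2C to 4C the members that passed were lower without exception, while 11.8% of all genes were higher.

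From 4C to 8C 5 members were higher and 2 lower of 29, where 19.8% of all genes passed, 11.5% higher and 8.23% lower. Zfp960 was measured at 22.0, 1.39, 56.5, 63.7 and 50.5 TPM at 4C and, as given above, far higher in all 8C libraries (log2 fold change 2.48 ± 0.54 (SE) [3.35, 1.22], adjusted p = 0.000594), without overlap. Zfp947 lay at or under 0.113 TPM in all 5 libraries of 4C and between 0.00740 and 11.5 TPM (median 4.69) at 8C (log2 fold change 2.11 ± 0.60 (SE) [1.42, 2.80], adjusted p = 0.00825), where replicate 1 remained as low as 4C. Zfp954 and Zfp939 rose by 2.43 and 2.17 on the log2 scale, with overlap in both. Zfp954 did not pass in 5 of 12 other settings and Zfp939 did not in 2 of 12. Zfp932 was measured at 47.3, 7.16, 73.2, 70.0 and 99.6 TPM at 4C and lay between 60.2 and 155 TPM (median 119) at 8C (log2 fold change 1.18 ± 0.43 (SE) [2.33, -0.27], adjusted p = 0.0422). Without 4C replicate 2, the library at 7.16 TPM, it did not pass (0.55 ± 0.39, adjusted p = 0.376), nor without 4C replicate 1 (1.19 ± 0.46, adjusted p = 0.0729). 4C replicate 2 was also the lowest for Zfp960, at 1.39 TPM. Zfp946 and Zfp942 fell by 1.64 and 1.49. Without 4C replicate 1 only 4 members passed (14.1% of all genes), 2 in each direction, and without 4C replicate 2 also 4 (14.7%), with 3 higher and 1 lower. After TPM was rescaled over the annotated genes, 4 were higher and 3 lower (6.56% and 14.0% of all genes).

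From 8C to morula 2 of 29 passed, both lower (12.2% of all genes, 8.74% higher and 3.48% lower). Zfp932 lay between 9.94 and 50.7 TPM (median 24.3) in the morula (log2 fold change -2.05 ± 0.41 (SE) [-2.21, -1.88], adjusted p = 0.000332). All morula libraries lay under all 8C libraries. Zfp950 was lower as well (log2 fold change -1.70 ± 0.55 (SE) [-2.65, -0.74], adjusted p = 0.0307).

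From morula to ICM 1 member was higher and 3 were lower (24.0% of all genes passed, 8.96% higher and 15.0% lower). The median over the members was -1.57 within replicates 1 to 3 and 0.12 within replicates 4 to 6. Over all genes these medians were -0.56 and 0.19. The members summed to 456.5 to 646 TPM in the morula and 247 to 372 TPM in ICM in replicates 1 to 3. In replicates 4 to 6 the sums did not fall, with 231 to 284 TPM and then 278 to 321 TPM. Zfp939 lay between 5.73 and 18.3 TPM (median 9.26) in the morula and between 0 and 1.88 TPM (median 0.516) in ICM (log2 fold change -2.74 ± 0.58 (SE) [-3.65, -1.83], adjusted p = 0.000269), without overlap. Zfp943 lay between 0.404 and 10.8 TPM (median 2.59) and then between 0 and 1.89 TPM (median 0.0709) (log2 fold change -1.52 ± 0.49 (SE) [-2.58, -0.45], adjusted p = 0.0165), with overlap. Zfp936 lay between 16.4 and 46.0 TPM (median 34.5) and then between 5.14 and 21.3 TPM (median 14.6) (log2 fold change -1.19 ± 0.40 (SE) [-1.81, -0.57], adjusted p = 0.0217), also with overlap. The member that rose was Zfp946, between 0.420 and 2.52 TPM (median 1.53) in the morula and between 0 and 20.9 TPM (median 8.94) in ICM (log2 fold change 1.63 ± 0.48 (SE) [0.76, 2.50], adjusted p = 0.00893). The ICM library at 0 was replicate 3, and the other 5 ICM libraries lay above all morula libraries. After quantile normalization 2 members were higher and 3 lower (9.92% and 10.9% of all genes).

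Between ICM and TE of the cloned blastocyst 2 of 29 members passed, where 5.34% of all genes did, 1.47% higher and 3.87% lower in ICM. Zfp946 was higher in ICM, with TE libraries between 0.00266 and 3.09 TPM (median 1.65) (log2 fold change 1.63 ± 0.48 (SE) [1.46, 1.80], adjusted p = 0.0326). Zfp947, another gene of the cluster with an E-box, was lower in ICM. It lay between 3e-06 and 8.20 TPM (median 0.252) in ICM and between 3.38 and 15.0 TPM (median 12.03) in TE (log2 fold change -2.38 ± 0.57 (SE) [-3.60, -1.15], adjusted p = 0.00651), and ICM replicates 5 and 6 reached the TE range. After quantile normalization neither passed (3.35% of all genes did), and Zfp946 did not pass in 4 of 7 other settings. The TE marker sums in ICM libraries reached the range of TE libraries, as given above, and their part in this comparison was not tested.

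The chromosome 17 run did not move as a unit. Zfp945 at its end stayed under the level needed for a test, with its highest group mean of 3.34 TPM in CCs. Zfp942 and Zfp944, whose promoters share the run of 207 bases, had like but not identical courses. Their group means were 51.8 and 48.0 TPM at 6 hpa, 65.9 and 70.9 at E2C and 102 and 63.0 at L2C. They were then 35.9 and 16.0 at 4C and 7.69 and 3.67 in the morula. Zfp942 was thus highest at L2C and Zfp944 at E2C. Zfp946 stood at 28.3 TPM at 6 hpa, 39.4 at L2C and 4.80 at 4C. Zfp943, which shares its E-box with Zfp942, was highest at E2C (26.3 ± 6.50 TPM, SD, n = 6), as Zfp944 was. At L2C, when Zfp942 was highest, Zfp943 was at 13.6 TPM. Zfp947 followed another course and was highest in TE (11.4 ± 4.26 TPM). Zfp948, which had no E-box in its window, was the only one of the 7 with its 2 highest group means in CCs and at L2C.

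**Figure D4:**
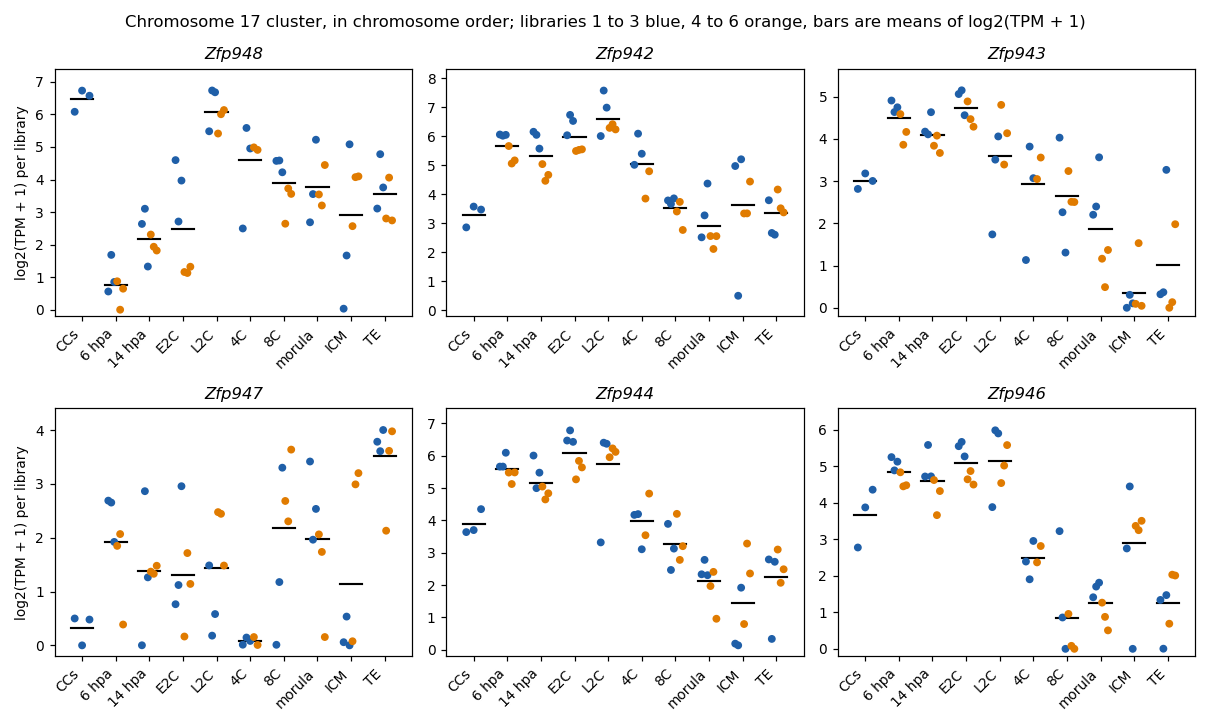
Level of 6 members of the chromosome 17 run in every CC and SCNT library, as log2(TPM + 1), with a panel per gene in genome order and stages along the horizontal axis. Points are libraries (blue for replicates 1 to 3, orange for replicates 4 to 6) and bars are means of the log2 values. Zfp942 and Zfp944 are high from 6 hpa to L2C and decline from 4C, Zfp948 is low from 6 hpa to E2C, and Zfp947 is highest in TE.

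The members whose course over the 10 groups was most like that of Zfp932 were Zfp930, Zfp951, Zfp944, Zfp942 and Zfp957, with Pearson correlations of log2 group means of 0.74, 0.73, 0.69, 0.69 and 0.65 over 10 groups. These points share libraries and depth, so the values are given as a description. The paralog Gm15446 was far lower than Zfp932, with group means from 2.50 to 10.6 TPM.

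The repression partners of KRAB zinc finger proteins were followed beside the members. Of 28 listed genes 27 were in the tables and 26 were tested in the SCNT series. The shares of all genes that passed at each step are given with the members above. A count below is therefore not a statement about the partners alone. From CCs to 6 hpa 11 rose and 8 fell, and 15 rose and 3 fell after quantile normalization. Of all genes that passed there, 42.03% were higher. After quantile normalization 7612 of 12084 genes passed, 49.97% of them higher. Among these Setdb1 rose from a mean of 14.2 to 30.5 TPM (log2 fold change 1.06 ± 0.47 (SE), adjusted p = 0.0436). Trim28 then fell from 6 hpa to 14 hpa, from a mean of 41.5 to 5.41 TPM (log2 fold change -2.98 ± 0.38 (SE) [-3.43, -2.53], adjusted p = 3.82e-08), together with Sumo2 and Rbbp7, the only 3 of the list to change there. Over that same step Zfp951, Zfp963 and Zfp932 rose. From 14 hpa to E2C Setdb1 fell from a mean of 37.6 to 16.7 TPM (log2 fold change -1.31 ± 0.39 (SE) [-1.79, -0.82], adjusted p = 0.0275) and Dnmt1, the maintenance DNA methyltransferase, fell from a mean of 42.2 to 6.86 TPM (log2 fold change -2.23 ± 0.44 (SE) [-1.78, -2.69], adjusted p = 0.000434). From E2C to L2C 6 partners rose and 5 fell, and 5 rose and 10 fell after quantile normalization. Trim28 rose from a mean of 6.09 to 22.2 TPM (log2 fold change 1.76 ± 0.38 (SE) [1.84, 1.67], adjusted p = 0.000157) and Cbx3, which encodes an HP1 protein, rose from a mean of 79.0 to 882 TPM (log2 fold change 3.58 ± 0.46 (SE) [3.34, 3.81], adjusted p = 1.41e-08). From L2C to 4C 3 rose and 4 fell, among them Uhrf1 and Suv39h2 (5 and 3 after quantile normalization), and 4 or fewer changed at each later step. Of 17 other KRAB zinc finger genes that are well described, 14 were tested. From L2C to 4C 6 of the 14 were lower and none higher (26.6% and 11.8% of all genes), whereas after quantile normalization 3 were lower and 2, Zfp568 and Zfp748, were higher. Lower in both was Zfp57, which guards imprinted methylation and stood at 568 TPM at 6 hpa, 899 TPM at 14 hpa, 329 TPM at E2C, 48.2 TPM at L2C and 8.83 TPM at 4C.

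In the fertilized series the first control ICM library stood apart and is given before the results. The 8 TE markers summed to 16322 TPM in control ICM replicate 1 and to 622 TPM in replicate 2, against 20859 and 18676 TPM in the control TE libraries. Cdx2, which specifies TE, was at 57.7 TPM in replicate 1 and 0.22 TPM in replicate 2, while Nanog, which marks ICM, was at 561 and 639 TPM. The same TE marker sum was 2772 and 5904 TPM in Max MO ICM and 11664 and 8153 TPM in Mcrs1 MO ICM. Primitive endoderm markers summed to 35.8 and 35.0 TPM in control ICM, 264 and 78.6 TPM in Max MO ICM and 86.2 and 81.3 TPM in Mcrs1 MO ICM. The counts of members that passed in ICM, and the members that passed, are therefore given with and without control replicate 1, and the part of these markers in them was not tested. Max was measured at 38.0 and 8.42 TPM in control ICM and 6.82 and 0.443 TPM in Max MO ICM, and at 34.5 and 28.5 TPM in control TE and 16.3 and 8.68 TPM in Max MO TE, and it passed as lower in ICM (log2 fold change -2.51, adjusted p = 0.0397, and -1.49 ± 0.81, adjusted p = 0.177 without control replicate 1) but not in TE (log2 fold change -1.32, adjusted p = 0.39). In Mcrs1 MO libraries Max was at 14.4 and 9.25 TPM in ICM and 17.6 and 15.7 TPM in TE, the latter under both controls and near Max MO TE (against control, log2 fold change -0.88, adjusted p = 0.543). Mcrs1 was measured at 253 and 310.1 TPM in control ICM and 86.8 and 73.4 TPM in Mcrs1 MO ICM, and at 219 and 294 TPM in control TE and 41.1 and 45.5 TPM in Mcrs1 MO TE, and it passed as lower in both (log2 fold change -1.80, adjusted p = 0.00333, and log2 fold change -2.52, adjusted p = 0.000868). In Max MO libraries it was at 218 and 242 TPM in ICM and 206 and 194 TPM in TE and did not pass. A morpholino acts on translation or splicing, so a transcript level is no direct check of it.

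In Max MO ICM the summed level of the members was lower than in controls, and few members passed singly. They summed to 633 and 437 TPM in control ICM and 264 and 210.2 TPM in Max MO ICM, with no overlap. In TE the sums were 568 and 509 TPM in controls and 531 and 510.1 TPM in Max MO. Of 30 members tested in ICM 5 passed, 1 higher and 4 lower, where 23.7% of all genes passed, 8.65% higher and 15.1% lower. The median log2 fold change was -1.03 over the members, -0.72 over 214 other Zfp-numbered genes and -0.21 over all genes. Without control replicate 1 these medians were -0.81, -0.73 and -0.12.

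Zfp960 was measured at 46.3 and 47.1 TPM in control ICM and 12.4 and 14.8 TPM in Max MO ICM (log2 fold change -1.71 ± 0.36 (SE), adjusted p = 0.00647), and without control replicate 1 the log2 fold change was -1.73 ± 0.42, adjusted p = 0.011. Zfp936 was measured at 35.2 and 41.7 TPM and 16.9 and 11.7 TPM (log2 fold change -1.38 ± 0.31 (SE), adjusted p = 0.00886, and -1.50 ± 0.35, adjusted p = 0.00879 without that library). Both control libraries exceeded both Max MO libraries in these genes. Most of the Zfp960 transcript is shared with Zfp97 and BC002059, so its fall cannot be assigned to Zfp960 alone. Zfp958 was measured at 38.6 and 22.0 TPM and 8.85 and 6.82 TPM (log2 fold change -1.78 ± 0.44 (SE), adjusted p = 0.0144, and -1.39 ± 0.49, adjusted p = 0.0468 without it). Zfp942 was measured at 41.8 and 17.1 TPM and 6.35 and 6.54 TPM (log2 fold change -1.90 ± 0.50 (SE), adjusted p = 0.0182), and without control replicate 1 it no longer passed (-1.29 ± 0.51, adjusted p = 0.0712). The only member that rose, Zfp938, was measured at 0.197 and 0.468 TPM and 2.89 and 4.52 TPM (log2 fold change 1.81 ± 0.55 (SE), adjusted p = 0.0327) and also no longer passed without it (1.66 ± 0.63, adjusted p = 0.0611). In control TE the same gene was at 7.93 and 4.92 TPM, above both control ICM libraries. Without control replicate 1 the 4 members that passed were Zfp935, Zfp936, Zfp958 and Zfp960, all lower (30.3% of all genes passed, 17.5% lower). Without control replicate 2 instead 13 passed, 2 higher and 11 lower (30.2% of all genes, 11.2% higher and 19.0% lower). Quantile normalization left only Zfp960 (19.2% of all genes), as did a fit of the 6 ICM libraries alone (9.42%). Zfp961, the member with the highest mean in all 3 ICM groups, was measured at 77.4 and 46.3 TPM in controls and 61.0 and 21.4 TPM in Max MO ICM, with overlap, and did not pass (log2 fold change -0.71 ± 0.45 (SE), adjusted p = 0.264, and -0.34 ± 0.50, adjusted p = 0.619 without control replicate 1).

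Of the 6 members with an E-box in the promoter window, 1 passed in Max MO ICM, namely Zfp942, where 23.7% of all genes did, and it did not pass without control replicate 1. Zfp944 was measured at 18.4 and 21.9 TPM in controls and 5.99 and 5.61 TPM in Max MO (log2 fold change -1.63 ± 0.66 (SE), adjusted p = 0.0896, and -1.75 ± 0.80, adjusted p = 0.109 without control replicate 1), which did not pass. The log2 fold changes of Zfp943, Zfp947, Zfp933 and Zfp946 were -1.19, -1.44, -0.23 and 0.67, and none of these passed. In TE none of the 6 passed, and Zfp942 was measured at 16.6 and 15.2 TPM in controls and 30.7 and 28.4 TPM in Max MO (log2 fold change 0.86 ± 0.50 (SE), adjusted p = 0.37).

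In TE no member passed for Max MO by limma (2.5% of all genes passed, 1.04% higher and 1.45% lower), and 2 had an unadjusted p under 5%, Zfp939 and Zfp948 (20.4% of all genes). A fit of the 6 TE libraries alone called both lower (6.81% of all genes lower). Zfp948 was measured at 64.8 and 53.1 TPM in control TE and 25.0 and 12.8 TPM in Max MO TE, and Zfp939 at 36.6 and 15.5 TPM and 7.55 and 6.25 TPM. In both genes the control libraries exceeded the Max MO libraries. Whether the Max MO response differed between ICM and TE was tested directly, and no member passed (0.0% of all genes), with 6 of 30 at an unadjusted p under 5% (13.1% of all genes). The response of Zfp932 was opposite in sign, with 43.4 and 17.8 TPM in control ICM, 11.8 and 11.4 TPM in Max MO ICM, 45.4 and 62.0 TPM in control TE and 87.2 and 95.0 TPM in Max MO TE. That of Zfp942, whose values are given above, was opposite too. The differences between the lineages were -1.96 ± 0.59 for Zfp932 (adjusted p = 0.241) and -2.76 ± 0.71 for Zfp942 (adjusted p = 0.203). Without control ICM replicate 1 the response of Zfp948 passed (difference 2.72, with 4.55% of all genes passing), and without replicate 2 those of Zfp932 and Zfp942 did (differences -2.58 and -3.38, with 3.62% of all genes).

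**Figure D5:**
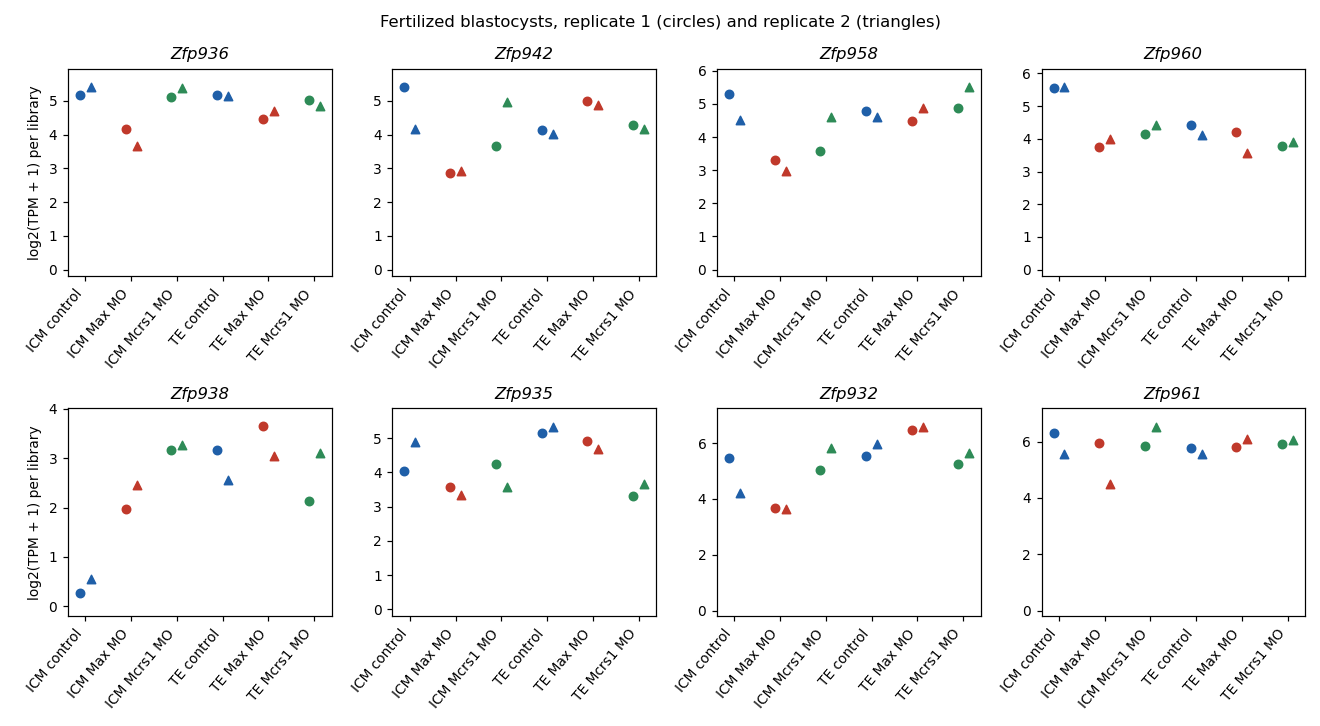
Level of Zfp936, Zfp942, Zfp958, Zfp960, Zfp938, Zfp935, Zfp932 and Zfp961 in the 12 fertilized blastocyst libraries, as log2(TPM + 1), by lineage and morpholino (circles replicate 1, triangles replicate 2). Zfp960 and Zfp936 are lower in both Max MO ICM libraries than in both controls, and Zfp932 lies above its controls in both Max MO TE libraries.

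For Mcrs1 MO 2 of 30 members passed in ICM, where 10.1% of all genes did, 4.88% higher and 5.21% lower. Zfp938 was measured at 0.197 and 0.468 TPM in controls and 7.98 and 8.68 TPM in Mcrs1 MO ICM (log2 fold change 2.81 ± 0.55 (SE), adjusted p = 0.0125, and 2.67 ± 0.63, adjusted p = 0.0121 without control replicate 1). Zfp960 was measured at 16.8 and 20.4 TPM in Mcrs1 MO ICM (log2 fold change -1.29 ± 0.36 (SE), adjusted p = 0.0409, and -1.30 ± 0.42, adjusted p = 0.0432 without it). Neither gene's groups overlapped. The change of Zfp960 again cannot be told apart from one of Zfp97 or BC002059, with which it shares most of its transcript. The Max and Mcrs1 comparisons share the control libraries. Without control replicate 1, 6 members passed: Zfp932, Zfp938, Zfp943 and Zfp948 were higher and Zfp940 and Zfp960 lower (22.4% of all genes passed, 12% higher and 10.4% lower). A limma fit of the 6 ICM libraries alone called none (0.0176% of all genes), with 4 at an unadjusted p under 5% (20.8% of all genes). Zfp960 did not pass after quantile normalization (-1.15 ± 0.37, adjusted p = 0.0709) or with the replicate block (-1.29 ± 0.38, adjusted p = 0.0521). In TE 1 of 30 passed (5.08% of all genes, 1.77% higher and 3.31% lower), Zfp935, at 34.4 and 39.3 TPM in controls and 8.97 and 11.5 TPM in Mcrs1 MO TE (log2 fold change -1.76 ± 0.41 (SE), adjusted p = 0.0322). Nearly all of this transcript is shared with Gm49359, and without any 1 of the 4 TE libraries involved it did not pass. No member's Mcrs1 response differed between the lineages (0.0% of all genes), with 1 at an unadjusted p under 5% (8.66% of all genes). Without control ICM replicate 1 those of Zfp940 and Zfp948 did (7.54% of all genes).

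Of the repression partners 27 were tested in the fertilized series, and in Max MO ICM 11 were lower and none higher, where 15.1% of all genes were lower. Without control replicate 1, 10 of 26 were lower and Hdac2 was higher (17.5% and 12.7% of all genes). Setdb1 fell from a mean of 57.6 to 10.5 TPM (log2 fold change -2.34 ± 0.52 (SE), adjusted p = 0.00886), with 82.2 and 33.0 TPM in the controls, and without control replicate 1 the log2 fold change was -1.69 ± 0.53, adjusted p = 0.0311. Morc3 fell from a mean of 123 to 31.2 TPM (log2 fold change -1.94 ± 0.29 (SE), adjusted p = 0.00154), and without that library the value was -2.04 ± 0.34, adjusted p = 0.00173. For the comparisons that follow, the shares of all genes that passed are given with the members above. In Max MO TE none of the partners passed. In Mcrs1 MO ICM 3 were lower, Atf7ip, Dnmt1 and Morc3, and 7 were lower and 2 higher without control replicate 1 (10.4% and 12% of all genes). In Mcrs1 MO TE 2 were lower, Dnmt3b and Kdm1a, and neither passed after quantile normalization. Of the other well described KRAB zinc finger genes 13 were tested. Zfp568 and Zfp708 were lower in Max MO ICM, joined by Zfp445 without control replicate 1. Zfp568 was lower in Mcrs1 MO ICM too, from a mean of 36.4 to 15.2 TPM (log2 fold change -1.18 ± 0.35 (SE), adjusted p = 0.0496), and without control replicate 1 the log2 fold change was -1.49 ± 0.37, adjusted p = 0.0161, but it did not pass after quantile normalization.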

How the data were processed

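The members were chosen by symbol, and they and the gene lists were chosen with earlier results of these data known. Per the methods and the submitters' processing notes, the authors trimmed Smart-seq2 reads with cutadapt 1.16, aligned them to mm10 with HISAT2 and estimated levels with StringTie. The tables deposited by the authors give TPM, FPKM and coverage per assembled locus, with annotated genes listed beside the loci, so that a column sums to more than 1000000. This TPM signal was used as deposited. No read counts are in these tables, and DESeq2, which the authors used, was not run. An exact 0 was read only as listed at 0.

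TPM was summed per gene and tested on log2(TPM + 1) with limma 3.58.1 in R 4.3.3 (eBayes with trend) over genes with a mean of at least 1 TPM: 11867 genes in 53 SCNT libraries of 9 groups, 12084 with the CCs added and 11219 in 12 fertilized libraries of 6 groups. A gene passed with a Benjamini-Hochberg adjusted p under 0.05 over all genes tested and at least a 2-fold change. Zfp937, Zfp940, Zfp945 and Zfp953 were under the limit in the SCNT fits and Zfp945, Zfp957 and Zfp964 in the fertilized fit. The same code was tested on simulated data. With 2 libraries per group, precision is set by the spread pooled over the 6 groups.

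Same-numbered libraries deviated together, with every correlation over 0.1, for 6 hpa with 14 hpa (lowest 0.14) and for ICM with TE of SCNT blastocysts (lowest 0.13). With the replicate number as a block, 3 and 2 members passed there, as without it. Named were the 10 members with the highest group mean, up to 6 members past the threshold per direction and comparison, any in a count of 5 or fewer, and neighbours or near-identical genes of these. Alternatives were another pseudocount, no filter, quantile normalization, rescaling over annotated genes, a replicate block, each subset of replicates, each lineage alone and leaving out libraries. Leaving out L2C replicate 1 was added after seeing the data.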

Additional observations from a re-analysis of the deposited data

Results flagged for a closer look

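Of 56 sets of 4 to 10 libraries whose values are given, 4 held a library far from the others by Dixon's criterion, and chance alone gives about 1 in 20. These were Zfp943 in ICM replicate 5 (1.89 TPM, next highest 0.237), Zfp943 in morula replicate 3 (10.8 TPM, next highest 4.27), Zfp947 in TE replicate 4 (3.38 TPM, next lowest 11.2) and Zfp951 at 6 hpa replicate 2 (46.3 TPM, next highest 20.1). In the fertilized series the Max MO response had opposite signs in ICM and TE for Zfp932 and Zfp942. The test of the difference gave -1.96 for Zfp932 (adjusted p = 0.241) and -2.76 for Zfp942 (adjusted p = 0.203) by limma, so neither passed with both control ICM libraries.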

How the results depend on the processing

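Of the counts of members that passed, those from replicates 1 to 3 alone were 0 from 6 hpa to 14 hpa, 3 from E2C to L2C, 4 from L2C to 4C and 3 from 4C to 8C, and those from replicates 4 to 6 alone were 8 from 6 hpa to 14 hpa, 4 from 14 hpa to E2C and 5 from 8C to morula. Quantile normalization gave 4 from 14 hpa to E2C, 0 for ICM against TE, 1 for Max MO in ICM, 1 for Mcrs1 MO in ICM and 0 for Mcrs1 MO in TE. A pseudocount of 0.1 gave 1 from 8C to morula and 1 for ICM against TE, and so did testing all genes above 0. Each lineage of the fertilized series fitted alone gave 1 and 2 for Max MO in ICM and TE, and 0 and 2 for Mcrs1 MO. In these cases the cause was not tested, though the subsets hold fewer libraries. Shares of all genes are given with the results above for some of these settings only. A moved count here and below is therefore not a statement about the members alone. Leaving out 1 library gave 14 to 16 from CCs to 6 hpa, 9 from E2C to L2C, 7 to 12 from L2C to 4C, 4 to 7 from 4C to 8C, 2 to 13 for Max MO in ICM, 0 in TE, and 0 to 6 for Mcrs1 MO in ICM, 0 in TE. For the difference between lineages it gave 0 to 2 for either morpholino. Where an arm was left with 1 library, that library was assumed to vary like the other groups.

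The replicate block gave 1 member for Mcrs1 MO in ICM instead of 2, and elsewhere moved no count by over 1.5 times. In the fertilized series no label ties same-numbered libraries to each other, and whether same-numbered ICM and TE libraries deviated together was not tested. Rescaling TPM over the annotated genes raised the summed level to 358 TPM in CCs, 785 at 6 hpa, 1171 at 14 hpa, 1053 at E2C, 1447 at L2C, 721 at 4C, 696 at 8C and 372 in ICM, and to 599 and 556 in control and Max MO TE. Among the named changes the only reversal was Zfp932 from 4C to 8C, -0.27 in replicates 4 to 6 alone. The median over the members changed sign between replicates 1 to 3 and 4 to 6 at several steps. Those for E2C to L2C and morula to ICM are given above. The medians were -0.12 and 0.59 from 6 hpa to 14 hpa, and 0.24 and -0.61 from 14 hpa to E2C. From 4C to 8C they were 0.22 and -0.27, and from 8C to morula 0.25 and -0.15. For ICM against TE they were -0.61 and 0.24. From L2C to 4C the sign did not change (-0.83 and -0.90). Over 54 named changes recomputed 493 times, 400 kept the call, 92 lost it and 1 reversed. With 2 libraries per group and no counts, smaller changes could not be resolved in the fertilized series.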
